A study of Mus musculus with 38 samples.

Results

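The genes described here encode 10 Wnt ligands: Wnt2, Wnt3, Wnt3a, Wnt4, Wnt5a, Wnt5b, Wnt7a, Wnt7b, Wnt8a and Wnt11. They were taken by symbol from tables of CUT&RUN coverage in mouse embryonic stem cells, and are 10 of the 78202 genes in those tables. CUT&RUN cuts out DNA that lies close to an antibody's target, so each value is coverage of a gene's DNA and not its expression. The antibodies were against LAP2B, a lamin-binding protein of the inner nuclear membrane, against LMNB1 (lamin B1), and a non-specific control (IGG). By the study's account the LAP2B antibody also recognises the nucleoplasmic form LAP2α, but picks up the β form far more readily in these cells. LAP2B was mapped in 24 libraries and LMNB1 and IGG in 6 each, with 3 libraries in each of 12 groups.

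The 4 genotypes were wild type (WT), LBRKO, TKO and QKO. LBRKO cells carry frameshift mutations of Lbr, the lamin B receptor gene, on the WT background. TKO cells are knockouts of the lamin genes Lmna, Lmnb1 and Lmnb2. QKO cells were made from TKO cells by mutating Lbr as well, and are a single clone. Each genotype was collected as naive cells, kept in 2i and LIF medium, and as epiblast-like cells (EpiLC), kept in FGF and activin A, at 48 hours in both cases. Only WT cells were used for LMNB1 and IGG. WT and TKO are separate lines. By karyotype TKO cells were trisomic for chromosome 8, some of them without a Y chromosome, and a minority of WT cells had lost the Y chromosome, some of these with trisomy of chromosomes 6 and 8 as well. The sources used here do not say that the 3 libraries of a group came from separate cultures, so p-values measure the spread between libraries, which may be technical.

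Wnt proteins are lipid-modified secreted signals that bind Frizzled receptors. Ligands of the canonical branch, such as Wnt3 and Wnt3a, stabilise β-catenin, which then acts with TCF/LEF factors at target genes, whereas Wnt5a and Wnt11 are better known for routes without β-catenin that steer cell shape and movement. In the early embryo canonical Wnt signalling drives formation of the primitive streak as the epiblast leaves pluripotency. The naive medium also holds CHIR-99021, an inhibitor of the kinase GSK3 that mimics canonical Wnt signalling inside the cell, and the EpiLC medium does not.

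The bases upstream of the start site are shown for 4 genes, namely the pair with lower LAP2B coverage in naive QKO cells on each scale tried (Wnt2, Wnt5a) and 2 with higher coverage on each scale and a start rich in CpG (Wnt4, Wnt11). Each run is the 250 bases before the annotated start (GENCODE M39, GRCm39), written 5′ to 3′ on the gene's strand, with each CG dinucleotide in capitals.
Wnt2, chr6:18031893-18032142, minus strand: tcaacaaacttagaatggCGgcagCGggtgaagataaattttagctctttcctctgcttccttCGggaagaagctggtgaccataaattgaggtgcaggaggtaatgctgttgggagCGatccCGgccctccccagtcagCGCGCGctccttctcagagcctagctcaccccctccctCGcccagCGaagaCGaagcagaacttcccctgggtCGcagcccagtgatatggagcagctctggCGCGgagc
Wnt5a, chr14:28226245-28226494, plus strand: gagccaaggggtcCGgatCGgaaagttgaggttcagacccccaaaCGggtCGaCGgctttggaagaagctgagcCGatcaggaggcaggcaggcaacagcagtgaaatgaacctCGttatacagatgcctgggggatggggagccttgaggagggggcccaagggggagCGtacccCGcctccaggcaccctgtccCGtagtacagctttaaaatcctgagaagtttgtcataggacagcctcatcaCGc
Wnt4, chr4:137004123-137004372, plus strand: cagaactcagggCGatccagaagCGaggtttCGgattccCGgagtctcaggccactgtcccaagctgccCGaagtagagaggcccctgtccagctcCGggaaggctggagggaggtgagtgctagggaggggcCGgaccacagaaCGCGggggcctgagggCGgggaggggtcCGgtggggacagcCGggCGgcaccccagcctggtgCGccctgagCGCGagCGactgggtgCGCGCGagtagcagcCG
Wnt11, chr7:98484069-98484318, plus strand: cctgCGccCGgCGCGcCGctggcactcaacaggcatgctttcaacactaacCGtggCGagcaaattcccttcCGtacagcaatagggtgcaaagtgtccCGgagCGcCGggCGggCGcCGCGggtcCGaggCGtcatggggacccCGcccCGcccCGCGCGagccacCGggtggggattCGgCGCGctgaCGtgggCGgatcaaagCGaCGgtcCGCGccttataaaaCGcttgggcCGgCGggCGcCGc

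The Wnt2 run holds 14 CG dinucleotides, Wnt5a 11, Wnt4 21 and Wnt11 37, against a median of 6 over 21683 promoters of protein-coding genes. Wnt4 and Wnt11 were picked for a start rich in CpG, so their higher counts than Wnt2 and Wnt5a are not a result. Of the genes not shown, Wnt3a held 41, Wnt3 22 and Wnt7a 18. Wnt5b (3) and Wnt8a (4) lay below the median of all promoters and Wnt7b (6) at it. These were also higher in naive QKO cells on the scale relative to the median gene, while Wnt5b and Wnt7b were below 0 on the spike-in scale. The TCF/LEF letters CTTTGAT, or ATCAAAG on the other strand, stand in the windows of Wnt11, Wnt5b and Wnt8a, that is in 3 of 10, and in 3.18% of all promoters of this length. Over whole genes, Wnt2 had a GC content of 42.5%, the lowest of the 10, and the others lay between 48.2% (Wnt5a) and 55.2% (Wnt4).

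Values are given on 2 scales. The relative value of a gene is its coverage divided by that of the median gene of the same library, and compares libraries free of their total level. The spike-in value is the deposited one, scaled by yeast DNA added to each sample. The sources leave unclear whether the yeast factor multiplied RPKM or reads, so spike-in changes are also given with it applied to reads. The 6 scalings tried are these 2 versions, division by the library's median gene, by its mean or by the median gene of the same chromosome, and centring on genes of like GC content. Neither is divided by gene length, so a gene is compared only with itself, and levels of different genes are compared as percentiles of coverage per 1 kb bin. A change is a log2 difference ± standard error (SE) from limma over all 70381 genes that passed the filter on low values, with two-sided p-values adjusted by Benjamini-Hochberg over all of them. A change is said to be called where the adjusted p was under 0.05. Shares of all genes called are given for the main fits on the 2 scales only. Counts of members under the other scalings and refits have no such share beside them. They show how calls moved and are not a result about the members. All 10 members passed the filter. They had 38 (Wnt8a) to 6303 (Wnt5b) recovered reads per library, out of 12028659 to 45689196 over all genes. A lower value cannot tell fewer cells or alleles with the gene near LAP2B from less LAP2B at the gene in each cell.

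In naive WT cells the Wnt genes were mostly poor in LMNB1, with Wnt2 as the exception. In naive cells Wnt2 stood at percentile 71.9 to 74.2 of LMNB1 per 1 kb over the 3 libraries, above the 9 others in every library. Wnt5b followed at 42.7 to 49.2, and Wnt5a, Wnt11, Wnt3, Wnt7a, Wnt8a and Wnt3a had means from 36.9 down to 20.8, each overlapping the next in the order. The lowest were Wnt7b, at 11.9 to 19.4, and Wnt4, at 7.83 to 16.1, which overlapped each other and not Wnt3a. LAP2B gave Wnt2 percentiles of 72.5 to 79.4, and the other members means of 21.9 (Wnt4) to 47.5 (Wnt3). IGG ran the other way. Its mean percentile was 44.6 for Wnt2, the lowest of the members, and 45.3 (Wnt5a) to 79.8 (Wnt5b) for the rest. Ranked among all genes, each member other than Wnt2 thus had a higher mean percentile in IGG than with either of the other antibodies. In WT EpiLC Wnt2 was at 66.3 to 79.2 in LMNB1, which overlapped Wnt8a (26.5 to 66.4). The other members had LMNB1 means there from 49.2 (Wnt8a) down to 24.9 (Wnt7b).

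**Figure D1:**
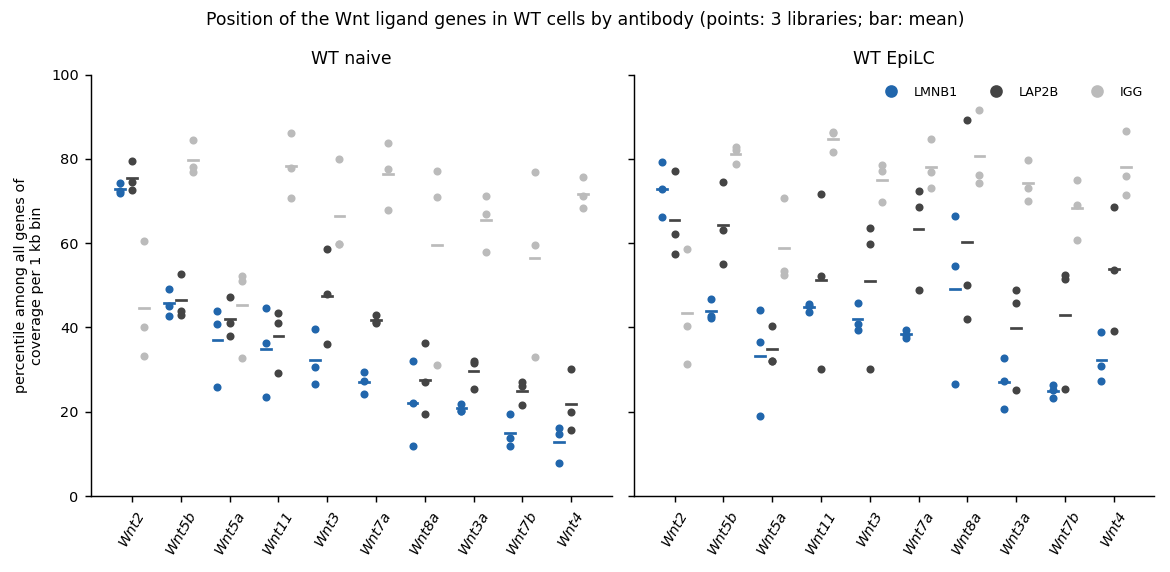
Percentile among all genes of coverage per 1 kb bin (vertical axis) for each Wnt gene in WT naive cells and WT EpiLC, by antibody, with a point for each of 3 libraries and a bar for their mean. Wnt2 is highest in LMNB1 and LAP2B in naive cells, and Wnt7b and Wnt4 are lowest in LMNB1 there, while the IGG mean lies above both other means for the 9 other genes.

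The question of the naive QKO comparison is where LAP2B lies once lamins and LBR are both gone. On the relative scale 10 of 10 Wnt genes were called, 8 higher and 2 (Wnt2, Wnt5a) lower, beside 75.6% of all tested genes called, 33.2% higher and 42.3% lower. On the spike-in scale 5 were called, with Wnt8a higher and Wnt2, Wnt3, Wnt5a and Wnt7a lower, against 75.4% of all genes (10.2% higher, 65.3% lower). With the factor applied to reads 5 were called as well, but 3 were higher (Wnt4 0.61, Wnt8a 1.33, Wnt11 0.64) and 2 lower (Wnt2 -2.42, Wnt5a -1.49), and Wnt3 (-0.30) and Wnt7a (-0.32) were not called. The libraries of the 2 groups did not overlap for 10 of 10 members on the relative scale, beside 75.4% of all genes. The median change of all tested genes was -0.22 on the relative scale and -1.23 on the spike-in scale, and that of the 10 members 0.84 and -0.39. The members' median was thus above that of all genes on both. However, members other than Wnt2 lay in deciles of GC content whose own medians were 0.25 to 1.18 on the relative scale. Members lay on both sides of the median of their decile, as given below. The sign of 5 of them (Wnt3, Wnt3a, Wnt5b, Wnt7a, Wnt7b) turned with the scale, and Wnt5b (0.09) and Wnt7b (0.06) were above 0 again with the factor applied to reads. Wnt8a, Wnt4 and Wnt11 were positive and Wnt2 and Wnt5a negative on each of the 6 scalings tried. Each relative call held in 6 of 6 fits that left out 1 library of the 2 groups.

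**Figure D2:**
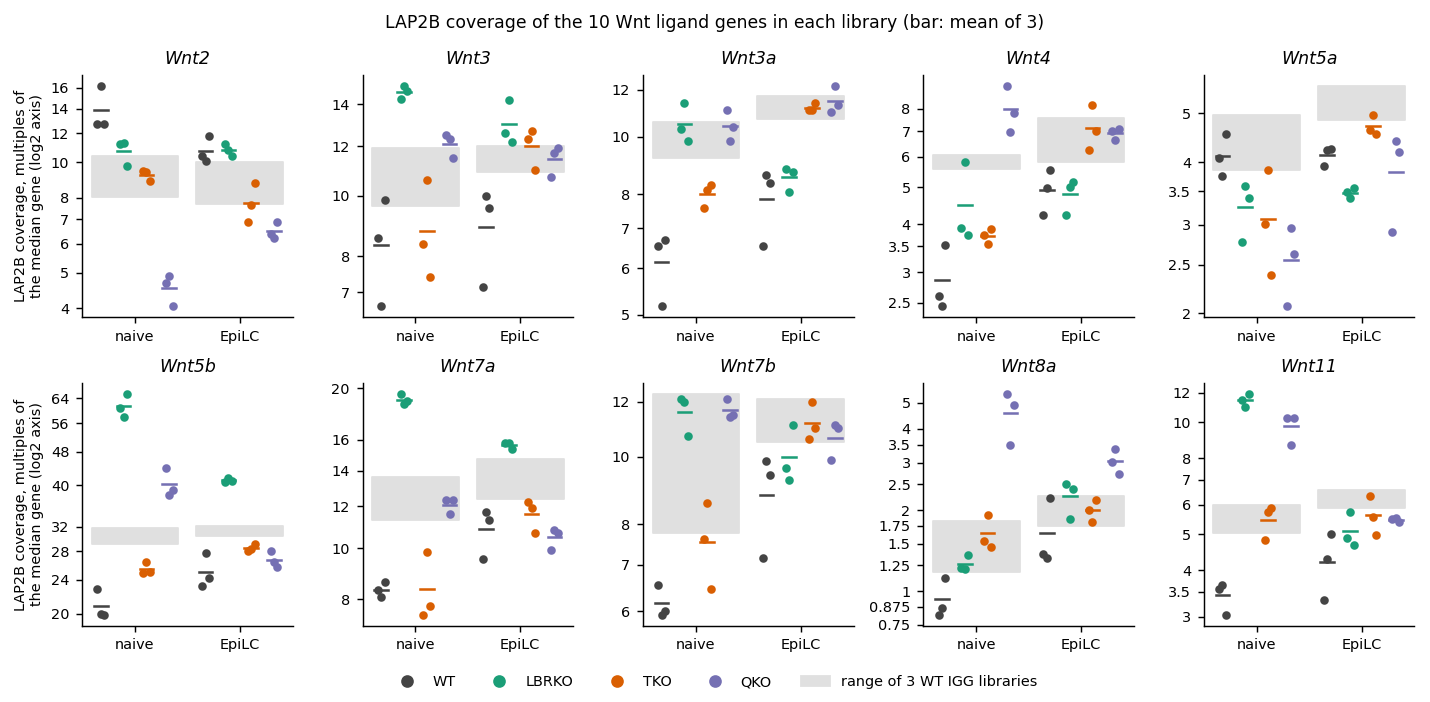
LAP2B coverage of each Wnt gene in all 24 libraries, as multiples of the library's median gene (log2 axis), by genotype and stage, with bars for the mean of 3 and a grey band for the range of the 3 WT IGG libraries of that stage. In naive cells the QKO libraries lie above WT for 8 genes and below it for Wnt2 and Wnt5a on this relative scale, and the genotypes lie closer together in EpiLC.

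In naive LBRKO cells 8 of 10 Wnt genes were called on the relative scale, 7 higher and Wnt2 lower, beside 56.6% of all genes, 28.9% higher and 27.6% lower. The same 7 (Wnt3, Wnt3a, Wnt4, Wnt5b, Wnt7a, Wnt7b, Wnt11) were called higher on the spike-in scale, where 46% of all genes were called (28.2% higher) and the median gene was at 0.21. With the factor applied to reads Wnt8a (1.00) was called higher too. Centred on GC content Wnt4 lost its call (0.26) and Wnt5a was called lower (-0.55). Wnt2 lost its call without LBRKO library 3 (-0.29, limma adjusted p = 0.0669) or WT library 2 (-0.24, adjusted p = 0.108), and Wnt8a gained one without WT library 3 (0.54, adjusted p = 0.0349). By the spike-in values Wnt4 lost its call without LBRKO library 2 (0.60) or WT library 1 (0.65).

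In naive TKO cells 8 were called on the relative scale, 6 higher and 2 (Wnt2, Wnt5a) lower, beside 49.3% of all genes, 21.8% higher and 27.5% lower. None was called higher on the spike-in scale, and Wnt2, Wnt3, Wnt5a and Wnt7a were called lower, with the median gene at -0.64 and 49.8% of all genes called (47.4% lower). Of the 6 relative gains, those of Wnt3a (-0.23), Wnt4 (-0.22), Wnt5b (-0.34) and Wnt7b (-0.34) were below 0 on the spike-in scale. With the factor applied to reads 7 were called, all lower, Wnt3a, Wnt5b and Wnt7b among them, and none of the 10 was above 0. Several relative calls did not hold when 1 library was left out, in some fits with nearly the same size of change. Wnt3a lost its call without WT library 2 (0.27, limma adjusted p = 0.0792). Wnt4 lost it without TKO library 1 or 3 or WT library 1 or 2 (0.29 to 0.38), Wnt5a without TKO library 1 or 3 or WT library 1 or 3 (-0.43 to -0.26), and Wnt7b without TKO library 1 or 2 or WT library 2 or 3 (0.18 to 0.27). On the spike-in scale Wnt3 lost its call without TKO library 1 or 3 or WT library 2 or 3 (-0.58 to -0.36) and Wnt7a without TKO library 1 or 3 or WT library 2 (-0.53 to -0.39), and Wnt5b (-0.57) and Wnt7b (-0.63) gained one without TKO library 2. Centred on genes of the same decile by GC content, 5 were called, with Wnt8a higher and Wnt2, Wnt3, Wnt5a and Wnt7a lower.

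Naive QKO was also compared with naive TKO, from which it was made by mutating Lbr. As QKO is a single clone, loss of LBR and differences of the clone cannot be told apart. On the relative scale 9 of 10 were called, 8 higher in QKO and Wnt2 lower (-1.01 ± 0.12, limma adjusted p = 3.87e-10), beside 53.6% of all genes (26.4% higher, 27.1% lower). The spike-in scale was not tested for this comparison. Mean spike-in values (± SD, n = 3) were lower in QKO than in TKO for 4 of the 8, namely Wnt3 (12.5 ± 1.16 against 14.6 ± 6.59), Wnt3a (10.8 ± 1.56 against 13.0 ± 3.79), Wnt7a (12.5 ± 1.52 against 13.9 ± 5.92) and Wnt7b (12.0 ± 1.38 against 12.4 ± 4.85), and Wnt5b was at 41.6 ± 6.48 against 41.3 ± 12.5. Each of these differences was smaller than the SD of the TKO libraries. On the relative scale Wnt5a did not pass (-0.25 ± 0.17, adjusted p = 0.196), but was called without TKO library 3 (-0.42, adjusted p = 0.0477) and after centring on genes of like GC content (-0.49). With that centring 5 were called, Wnt2 and Wnt5a lower and Wnt4, Wnt5b and Wnt8a higher, and Wnt3 was then at -0.07 in place of 0.47.

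**Figure D3:**
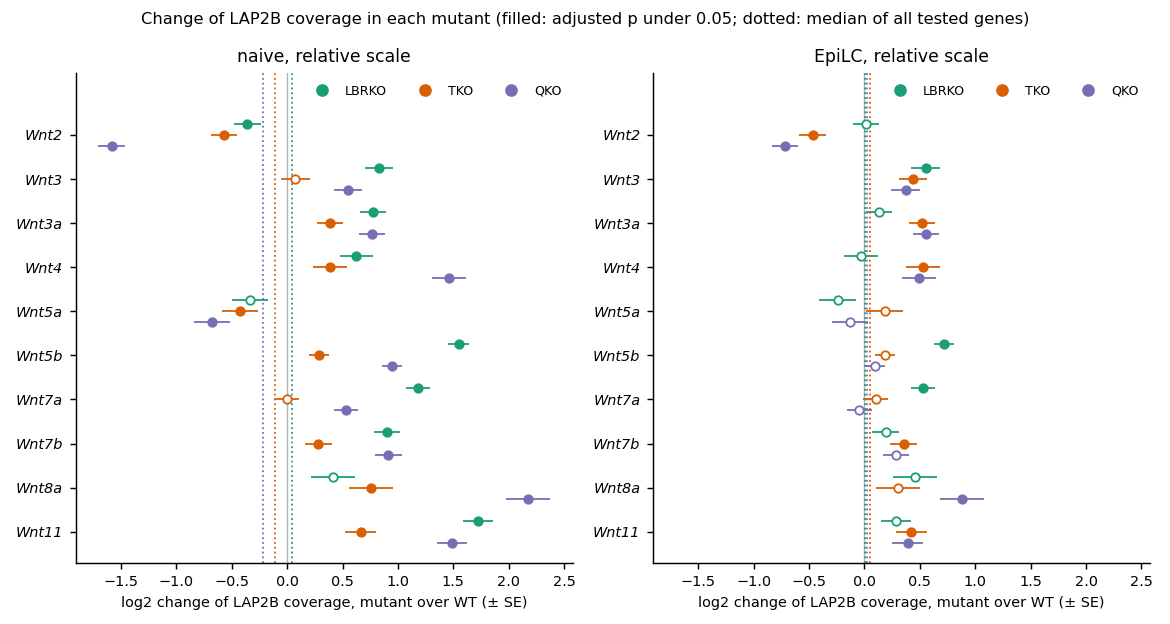
log2 change of LAP2B coverage of each mutant against WT on the relative scale, naive (left) and EpiLC (right), with SE bars, filled points for adjusted p under 0.05 and dotted lines for the median of all tested genes. Naive changes run from -1.59 (Wnt2, QKO) to 2.17 (Wnt8a, QKO), and EpiLC changes from -0.72 to 0.88; on the spike-in scale 5 of the 8 naive QKO gains turn negative.

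At the EpiLC stage LAP2B is described as LAP2B coverage only, since the study found it outside lamina-associated domains too in WT EpiLC and did not use it there to mark them. In EpiLC fewer Wnt genes were called than in naive cells in each mutant on the relative scale, while on the spike-in scale QKO had 5 at both stages. On the relative scale LBRKO had 3 Wnt genes called, all higher (Wnt3, Wnt5b, Wnt7a), beside 23.4% of all genes (13.3% higher). TKO had 6, with Wnt2 lower and Wnt3, Wnt3a, Wnt4, Wnt7b and Wnt11 higher, beside 18.6% (8.68% higher, 9.94% lower), and QKO had 6, with Wnt2 lower and Wnt3, Wnt3a, Wnt4, Wnt8a and Wnt11 higher, beside 36.1% (18.3% higher, 17.8% lower). With spike-in scaling LBRKO and TKO had 1 each (Wnt5b higher, Wnt2 lower), beside 9.02% (5.55% higher) and 9.43% (9.33% lower) of all genes, and QKO had 5, all lower (Wnt2, Wnt5a, Wnt5b, Wnt7a, Wnt7b), beside 55.6% (55.5% lower). Of the 5 relative gains in QKO, those of Wnt3 (-0.51), Wnt3a (-0.32), Wnt4 (-0.38) and Wnt11 (-0.48) were below 0 on the spike-in scale. With the factor applied to reads only Wnt2 was called in QKO (-1.10), none in TKO, and 7 in LBRKO, all higher (Wnt3, Wnt3a, Wnt5b, Wnt7a, Wnt7b, Wnt8a, Wnt11). The shares of all genes called with that setting are not given, so these counts cannot be set against them. The spike-in call of Wnt5b in LBRKO was lost without any of the 3 LBRKO libraries or WT library 2 (0.64 to 0.78), that of Wnt2 in TKO without TKO library 2 or 3 or WT library 1 or 3 (-0.69 to -0.56), and that of Wnt7b in QKO without any of the 3 QKO libraries or WT library 3 (-0.60 to -0.43). Without WT library 2, Wnt3 (-0.60) and Wnt11 (-0.63) were called lower in QKO too.

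Of the relative EpiLC calls, those of LBRKO each held in 6 of 6 fits without 1 library, and Wnt8a and Wnt11 were called there too without WT library 3 (0.68 and 0.41). Those of Wnt2 and Wnt3a in TKO, and of Wnt2, Wnt3a and Wnt8a in QKO, also held in 6 of 6. WT library 1, the lowest of its group for each member but Wnt2 and Wnt8a, bore on the others. Without it Wnt3 (0.29 in TKO, 0.22 in QKO), Wnt4 (0.43 and 0.39), Wnt11 (0.27 and 0.24) and, in TKO, Wnt7b (0.21) were not called. Leaving out TKO library 1 (Wnt3, Wnt7b, Wnt11), 2 (Wnt3, Wnt4, Wnt7b, Wnt11) or 3 (Wnt7b) also lost calls, at 0.30 to 0.43, as did QKO library 1 (Wnt11), 2 (Wnt3, Wnt11) or 3 (Wnt3), at 0.34 to 0.39. Centred on GC content, TKO had 2 calls (Wnt2, Wnt3a) and QKO 4 (Wnt2, Wnt7a lower, Wnt3a, Wnt8a higher). Of the relative TKO and QKO calls, division by the chromosome's median gene left Wnt11 in TKO and Wnt2, Wnt8a and Wnt11 in QKO. Wnt3a (0.30 in TKO, 0.20 in QKO) and Wnt2 in TKO (-0.28) were among those lost. Wnt5b was then called higher in both mutants (0.38 and 0.39). QKO against TKO in EpiLC gave 0 Wnt calls by limma and 0 by edgeR on recovered reads, beside 1.2% of all genes by limma, and 2 members were at an unadjusted p under 0.05, beside 13.1% of all genes.

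The genes follow one by one, canonical ligands first. Unless another scale is named, values are relative ones, in the order of libraries 1, 2 and 3. The IGG ranges given are relative too, so they compare a gene's share of each library and not its amount of signal. On the spike-in scale the median gene was at 0.537 ± 0.111 (SD, n = 3) in naive IGG and 2.45 ± 0.384 in naive WT LAP2B.

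Wnt3, needed for the primitive streak, lies at chr11:103664976-103708853 on the plus strand and overlaps 1 unnamed gene. Its naive values ran from 6.66 to 9.83 in WT, 14.3 to 15 in LBRKO, 7.40 to 10.6 in TKO and 11.5 to 12.5 in QKO. Neither LBRKO nor QKO overlapped WT, whereas TKO did. The change was 0.83 ± 0.13 in LBRKO (limma adjusted p = 2.7e-07) and 0.55 ± 0.13 in QKO (adjusted p = 0.000152), and 0.07 ± 0.13 in TKO. In QKO it turned to -0.68 on the spike-in scale, to -0.36 when divided by the median gene of chromosome 11 and to -0.35 when centred on GC content. In EpiLC the values were 7.15 to 10 in WT, 12.2 to 14.2 in LBRKO, 11 to 12.7 in TKO and 10.7 to 11.9 in QKO, so that no mutant overlapped WT. Against a naive IGG range of 9.64 to 11.9, LBRKO lay above it, QKO overlapped its upper end, and WT and TKO overlapped its lower end.

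Wnt3a, a ligand of paraxial mesoderm and the tail bud, lies at chr11:59138859-59181584 on the minus strand. Its naive values ran from 5.18 to 6.69 in WT, 9.83 to 11.4 in LBRKO, 7.57 to 8.28 in TKO and 9.82 to 11.1 in QKO, and every mutant library was above every WT library. The naive IGG range of 9.19 to 10.6 overlapped LBRKO and QKO, and WT and TKO lay below it. The change was 0.78 ± 0.12 in LBRKO, 0.38 ± 0.12 in TKO and 0.77 ± 0.12 in QKO, the last with a limma adjusted p of 9.83e-08. On the spike-in scale the QKO change was -0.46 and not called, and relative to chromosome 11 it was -0.14. EpiLC values were 6.55 to 8.63 in WT and 8.07 to 8.82 in LBRKO, which overlapped, and 11.1 to 11.4 in TKO and 11 to 12.2 in QKO, which did not.

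Wnt8a, expressed in the posterior epiblast at gastrulation, is the shortest member at 6.05 kb, lies at chr18:34675277-34681326 on the plus strand and overlaps Nme5, so coverage of the 2 genes cannot be told apart where they share bins. Naive libraries gave 0.819, 0.864 and 1.12 (WT), 1.22, 1.21 and 1.36 (LBRKO), 1.54, 1.92 and 1.46 (TKO) and 5.38, 3.50 and 4.91 (QKO). The genotypes did not overlap, in the order WT, LBRKO, TKO, QKO. The naive IGG libraries had 1.18 to 1.83, and QKO alone had every library above that range. On the spike-in scale each naive genotype had a mean above that of IGG (0.831), from 2.29 in WT to 4.79 in QKO. The change in QKO was 2.17 ± 0.20 (limma adjusted p = 4.08e-14), the highest of the 10, and it stayed called higher on the spike-in scale (0.98). TKO was at 0.76 ± 0.20 (adjusted p = 0.00152) and LBRKO at 0.41 ± 0.20 (adjusted p = 0.0744). EpiLC libraries gave 1.38, 1.33 and 2.21 (WT), 2.49, 1.86 and 2.40 (LBRKO), 2.00, 1.81 and 2.19 (TKO) and 3.02, 3.37 and 2.72 (QKO). There only QKO stood clear of WT, with a change of 0.88 ± 0.20 (adjusted p = 0.000461), which was 0.03 on the spike-in scale.

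Wnt2, known for roles in placental vessels and lung, lies at chr6:17985468-18031892 on the minus strand. The naive libraries had 12.7, 16.2 and 12.7 (WT), 11.2, 11.3 and 9.75 (LBRKO), 9.49, 9.40 and 8.88 (TKO) and 4.69, 4.90 and 4.06 (QKO). Each genotype lay below the one before it with no overlap, and the QKO libraries were also below the naive IGG range of 8.03 to 10.4. The change was -0.36 ± 0.12 in LBRKO, -0.57 ± 0.12 in TKO (limma adjusted p = 7.96e-05) and -1.59 ± 0.12 in QKO (adjusted p = 2.76e-17), and the last 2 kept their sign on each of the 6 scalings. The LBRKO change was -0.18 and not called on the spike-in scale, 0.26 and not called with the factor applied to reads, and not called when divided by the mean (-0.24). The TKO change was not called when divided by the mean either (-0.245). The fold of Wnt2 in QKO was 0.333 of WT. EpiLC libraries gave 10.4, 10.1 and 11.8 (WT), 11.2, 10.8 and 10.4 (LBRKO), 6.89, 7.63 and 8.76 (TKO) and 6.39, 6.21 and 6.86 (QKO). LBRKO overlapped WT (0.02 ± 0.12), while TKO (-0.47 ± 0.12, adjusted p = 0.00431) and QKO (-0.72 ± 0.12, adjusted p = 4.15e-06) did not.

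Wnt7a, which patterns the limb and the female reproductive tract, lies at chr6:91340959-91388460 on the minus strand and overlaps 2 unnamed genes. In naive cells it had 8.32, 8.09 and 8.62 (WT), 19.5, 18.7 and 18.9 (LBRKO), 7.49, 9.83 and 7.79 (TKO) and 12.3, 11.6 and 12.3 (QKO). LBRKO was above every other naive library and above the IGG range of 11.3 to 13.6, TKO overlapped WT, and QKO lay within the IGG range. The change was 1.18 ± 0.11 in LBRKO (limma adjusted p = 2.23e-13) and 0.53 ± 0.11 in QKO (adjusted p = 2.3e-05). The QKO sign was not firm, at -0.70 on the spike-in scale and -0.37 centred on GC content. EpiLC libraries gave 9.53, 11.7 and 11.3 (WT), 15.8, 15.8 and 15.4 (LBRKO), 12.2, 11.9 and 10.7 (TKO) and 9.92, 10.8 and 10.7 (QKO), of which LBRKO alone did not overlap WT (0.53 ± 0.11, adjusted p = 0.000152).

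Wnt7b, which with Wnt7a acts in the vessels of the brain and alone in lung and placenta, lies at chr15:85419638-85466674 on the minus strand and overlaps AU022754. Naive coverage was 6.54, 5.93 and 6.00 (WT), 12.1, 12.0 and 10.7 (LBRKO), 7.61, 8.58 and 6.45 (TKO) and 12.1, 11.4 and 11.5 (QKO). LBRKO and QKO lay at a like level above WT, inside the IGG range of 7.78 to 12.3, and TKO overlapped WT at 1 library. The change was 0.90 ± 0.12 in LBRKO (limma adjusted p = 9.71e-09) and 0.91 ± 0.12 in QKO (adjusted p = 2.39e-09), the latter -0.32 on the spike-in scale and -0.11 centred on GC content. EpiLC libraries gave 7.15, 9.85 and 9.41 (WT), 9.65, 9.25 and 11.1 (LBRKO), 10.6, 12.0 and 11 (TKO) and 9.88, 11.1 and 11 (QKO). The QKO libraries did not overlap WT, yet the change missed the threshold (0.28 ± 0.12, adjusted p = 0.058); it passed without WT library 2 (0.37) or 3 (0.34).

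Among ligands with a known role outside the β-catenin branch, Wnt4, which acts in kidney tubules and the female gonad, lies at chr4:137004373-137027037 on the plus strand. Its naive coverage was 2.60, 2.45 and 3.54 (WT), 3.92, 5.82 and 3.76 (LBRKO), 3.74, 3.55 and 3.88 (TKO) and 9.20, 6.96 and 7.81 (QKO). QKO was above every other naive library and above the IGG range of 5.58 to 6.05, and the other mutants were above WT by a smaller step. The change was 1.46 ± 0.15 in QKO (limma adjusted p = 2.84e-12), 0.62 ± 0.15 in LBRKO (adjusted p = 0.000514) and 0.38 ± 0.15 in TKO. The QKO change was positive on each of the 6 scalings, but not called on the spike-in scale (0.24), where it was called with the factor applied to reads (0.61). The LBRKO change fell to 0.26 and was not called when centred on GC content, and the TKO change was below 0 there (-0.09) and on the spike-in scale (-0.22). EpiLC libraries gave 4.22, 4.98 and 5.54 (WT), 4.22, 4.99 and 5.16 (LBRKO), 6.24, 8.19 and 7 (TKO) and 7.01, 6.65 and 7.07 (QKO). LBRKO overlapped WT there (-0.03 ± 0.15), and TKO (0.53 ± 0.15) and QKO (0.49 ± 0.15) did not.

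Wnt5a, which acts through Ror2 in axis elongation, lies at chr14:28226495-28249405 on the plus strand and overlaps Gm2670. In the naive libraries it was 4.07, 3.75 and 4.54 (WT), 2.77, 3.59 and 3.4 (LBRKO), 3.01, 3.85 and 2.39 (TKO) and 2.07, 2.96 and 2.63 (QKO). LBRKO and QKO lay below WT without overlap, and TKO overlapped it at 1 library. The naive IGG range of 3.86 to 4.96 overlapped WT, and every mutant library lay below it. The change was -0.68 ± 0.17 in QKO (limma adjusted p = 0.000255) and -0.43 ± 0.17 in TKO (adjusted p = 0.0278), and it missed the threshold in LBRKO (-0.34 ± 0.17, adjusted p = 0.0771). Centred on GC content it was called lower in LBRKO too (-0.55), and divided by the median gene of its chromosome the QKO change was -0.22 and not called. By the spike-in values the QKO change was -1.86 and called. EpiLC libraries gave 3.93, 4.23 and 4.25 (WT), 3.48, 3.4 and 3.55 (LBRKO), 4.63, 4.96 and 4.54 (TKO) and 2.91, 4.4 and 4.18 (QKO). LBRKO lay below and TKO above WT without overlap, but none of the 3 EpiLC changes passed on the relative scale (-0.24, 0.18 and -0.13), and QKO was called lower on the spike-in scale (-0.99).

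Wnt5b, the paralogue of Wnt5a, is the longest member at 113 kb, lies at chr6:119409323-119521897 on the minus strand and overlaps Fbxl14 and 3 unnamed genes. Relative naive values were 22.8, 20.0 and 19.9 (WT), 60.6, 57.7 and 65.4 (LBRKO), 24.9, 26.4 and 25.0 (TKO) and 43.9, 37.9 and 39 (QKO). The 4 genotypes did not overlap, and LBRKO and QKO exceeded the IGG range of 29.1 to 31.8. The change was 1.55 ± 0.09 in LBRKO (limma adjusted p = 1.44e-19), 0.28 ± 0.09 in TKO (adjusted p = 0.00823) and 0.94 ± 0.09 in QKO (adjusted p = 2e-13). LBRKO stayed called higher on the spike-in scale (1.73), while QKO was at -0.30 there and not called, and at 0.09 with the factor applied to reads. The TKO change turned to -0.34 on the spike-in scale, was called lower with the factor applied to reads (-0.57), and was not called when centred on GC content (0.16). EpiLC libraries gave 23.2, 27.7 and 24.3 (WT), 40.8, 41.6 and 40.9 (LBRKO), 28.0, 28.4 and 29.2 (TKO) and 28.0, 26.5 and 25.8 (QKO). LBRKO stood well above the rest (0.72 ± 0.09, adjusted p = 1.52e-08), and TKO (0.19) and QKO (0.10) were not called.

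Wnt11, known for convergent extension in gastrulation and branching of the ureteric bud, lies at chr7:98484319-98504402 on the plus strand and overlaps Gm8398 and 1 unnamed gene. The naive values read 3.57, 3.66 and 3.04 (WT), 11.5, 11 and 11.9 (LBRKO), 4.82, 5.75 and 5.87 (TKO) and 10.3, 8.72 and 10.3 (QKO). Every mutant library exceeded WT, LBRKO was the highest, and LBRKO and QKO lay above the IGG range of 5.03 to 5.99. The change was 1.72 ± 0.14 in LBRKO (limma adjusted p = 1.76e-15), the highest of the 10 there, 0.66 ± 0.14 in TKO (adjusted p = 7.03e-05) and 1.49 ± 0.14 in QKO (adjusted p = 3.73e-14). On the spike-in scale it was 1.91 and called in LBRKO, and 0.26 and not called in QKO, where it was called with the factor applied to reads (0.64). EpiLC libraries gave 3.33, 4.30 and 5.00 (WT), 4.88, 5.74 and 4.68 (LBRKO), 6.33, 5.58 and 4.99 (TKO) and 5.51, 5.54 and 5.38 (QKO). The EpiLC values of the mutants were close together, with changes of 0.28, 0.42 and 0.39, and only QKO did not overlap WT.

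In WT cells the step from naive to EpiLC was compared for each antibody. For LAP2B, 7 Wnt genes were called on the relative scale, Wnt2 lower (-0.36 ± 0.12) and Wnt3a, Wnt4, Wnt5b, Wnt7a, Wnt7b and Wnt8a higher, beside 32.2% of all genes, 15.1% higher and 17.1% lower. Wnt4 rose by 0.77 ± 0.15 (limma adjusted p = 0.000113), from a mean of 2.86 ± 0.59 (SD, n = 3) to 4.91 ± 0.66. Wnt8a rose by 0.73 ± 0.20 (adjusted p = 0.00391) and Wnt7b by 0.50 ± 0.12 (adjusted p = 0.00122). With spike-in scaling these 3 were called, all higher, beside 12.1% (10.4% higher), and no gene called on the relative scale changed sign there. Without naive library 1 or EpiLC library 3 none of the 3 was called on the spike-in scale (0.51 to 0.79), Wnt7b was also lost without EpiLC library 1 (0.74) or naive library 3 (0.63), and Wnt8a without EpiLC library 1 (0.93). Wnt2 lost its relative call without EpiLC library 2 or naive library 2 (-0.32 and -0.24), Wnt3a without EpiLC library 2 or 3 or naive library 2 (0.23 to 0.30), Wnt5b without EpiLC library 2 or naive library 2 or 3 (0.18 to 0.23), and Wnt8a without EpiLC library 3 (0.51). Wnt11 gained one without EpiLC library 1 (0.43). Centred on GC content, 3 were called, all higher (Wnt4, Wnt5b, Wnt8a), and Wnt2 was at -0.28.

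For LMNB1, 5 were called, all higher in EpiLC on both scales (Wnt3a, Wnt4, Wnt7a, Wnt7b, Wnt8a), beside 13.4% of all genes on the relative scale (6.34% higher) and 8.23% on the spike-in scale (7.98% higher). Wnt4 went from 1.87, 2.35 and 1.48 to 3.90, 3.44 and 4.09 (0.99 ± 0.19, limma adjusted p = 0.00208), without overlap, and its relative call held in 6 of 6 fits without 1 library. With the yeast factor applied to reads Wnt4 and Wnt7b were left, and Wnt3a (0.62), Wnt7a (0.66) and Wnt8a (0.94) were not called. Divided by the median gene of the same chromosome Wnt4 and Wnt7a were left, and Wnt3a (0.28), Wnt7b (0.48) and Wnt8a (0.80) were not called. Wnt7b went from 3.20, 5.18 and 4.32 to 7.05, 6.74 and 6.77 (0.71 ± 0.16, adjusted p = 0.00719). Its call was lost without EpiLC library 1 (0.69), as were those of Wnt3a, Wnt7a and Wnt8a, so that 1 of 5 was left. Those of Wnt7a (EpiLC library 3), Wnt3a (EpiLC library 3, naive library 1 or 3) and Wnt8a (EpiLC library 3, naive library 1 or 2) were lost without others too, at 0.41 to 0.74, and Wnt3 and Wnt11 were gained without naive library 2 (0.55 each). On the spike-in scale none of the 5 was left without EpiLC library 1 or 3 or naive library 1, Wnt3a, Wnt7a and Wnt8a were also lost without naive library 2, and Wnt3 and Wnt11 were gained without EpiLC library 2 or naive library 3 (0.84 to 0.89). Without the filter on low values 0 of 10 were called on either scale.

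IGG gave 0 Wnt calls between the stages by limma or edgeR on both scales, beside 0.49% of all genes on the relative scale and 0% on the spike-in scale. At an unadjusted p under 0.05, 0 members were found on the relative scale, beside 13.1% of all genes, and 9 on the spike-in scale, beside 34.8%, where the IGG median of all genes was 0.93 higher in EpiLC. Relative IGG changes of the members lay between -0.06 (Wnt2) and 0.31 (Wnt8a), with SEs of 0.09 to 0.22. By the spike-in values Wnt4 was called without EpiLC library 3 (1.55).

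The effect of a genotype was then compared between stages as an interaction, the EpiLC change minus the naive change, on the relative scale. For QKO 8 Wnt genes were called, beside 45.8% of all genes (24.8% higher, 21% lower). Wnt2 (0.87 ± 0.17) and Wnt5a (0.55 ± 0.23), which were lower in naive QKO, were positive, and Wnt4, Wnt5b, Wnt7a, Wnt7b, Wnt8a and Wnt11 were negative, from -1.29 ± 0.28 (Wnt8a, limma adjusted p = 0.000175) to -0.58 ± 0.15 (Wnt7a). All 8 naive changes that differed were thus nearer 0 in EpiLC on this scale. This was not particular to them. Over all genes the QKO medians by GC decile ran from -1.47 to 1.18 in naive cells and from -0.595 to 0.415 in EpiLC. Genes within 500 kb had a median stage difference of the same sign at each of the 8, from -1.21 (Wnt8a) and -0.10 (Wnt11) to 0.715 (Wnt5a). The rate of such agreement over all genes was not computed. By the spike-in values, where the difference was not tested, Wnt2, Wnt5a and Wnt8a were nearer 0 in EpiLC, but Wnt4 (0.24 naive, -0.38 EpiLC), Wnt5b (-0.30, -0.78), Wnt7a (-0.70, -0.92), Wnt7b (-0.32, -0.59) and Wnt11 (0.26, -0.48) were farther from it. With the factor applied to reads Wnt4 (0.11 in EpiLC) and Wnt11 (0.01) were nearer 0 again. The call of Wnt5a held in 3 of 12 fits without 1 library and was lost without naive QKO library 1 or 3, EpiLC QKO library 2 or 3, any EpiLC WT library, or naive WT library 1 or 3 (0.41 to 0.58). Centred on GC content 5 were called (Wnt2, Wnt3, Wnt5a, Wnt5b, Wnt8a), with Wnt4 at -0.25, Wnt11 at -0.39, Wnt7b at 0.09 and Wnt7a at -0.001, its QKO change being -0.37 at both stages. Divided by the chromosome's median gene Wnt5a (0.22) and Wnt7b (-0.32) were not called. For LBRKO 6 were called, all negative, beside 19.8% of all genes (9.55% lower), and Wnt11 was the lowest at -1.44 ± 0.19 (adjusted p = 7.46e-07). Of these, Wnt4 lost its call without naive LBRKO library 2, EpiLC LBRKO library 1, naive WT library 1 or 2, or EpiLC WT library 2 or 3 (-0.64 to -0.46). Centred on GC content 4 of the 6 were called, without Wnt4 (-0.35) and Wnt7b (-0.40), and divided by the chromosome's median gene 4 were called, without Wnt4 (-0.55) and Wnt3a (-0.41). For TKO none was called by limma or edgeR, beside 9.58% of all genes by limma, and 2 members were at an unadjusted p under 0.05, beside 24.8% of all genes. The smallest of these adjusted p-values was that of Wnt5a (0.61 ± 0.23, adjusted p = 0.0848), which passed without naive TKO library 2 (0.78, adjusted p = 0.0271).

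**Figure D4:**
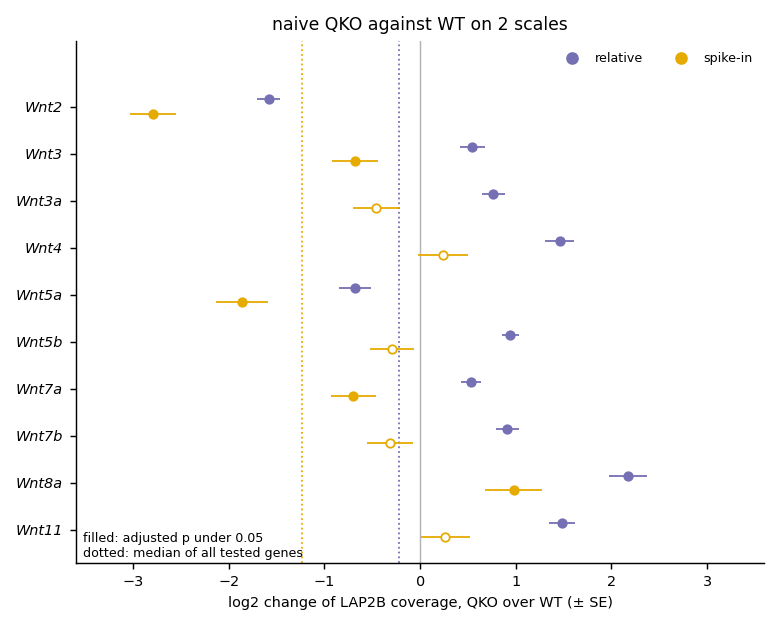
log2 change of LAP2B coverage in naive QKO against WT for each Wnt gene on the relative and the spike-in scale, with SE bars, filled points for adjusted p under 0.05 and dotted lines for the median of all tested genes (-0.22 and -1.23). On the spike-in scale Wnt8a (0.98) is the only member called higher, and Wnt3, Wnt3a, Wnt5b, Wnt7a and Wnt7b move from above 0 to below it. With the yeast factor applied to reads, not plotted, Wnt4 (0.61) and Wnt11 (0.64) are called higher too and Wnt5b (0.09) and Wnt7b (0.06) stay above 0.

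Each Wnt gene was next set beside the genes around it and genes of like composition, in naive QKO on the relative scale. The genes within 500 kb changed in the same direction as the member at all 10 loci, by their median. How often a gene shares the direction of its neighbours, or lies within their quartiles, was not counted over all genes. No trait of Wnt loci can be read from the counts given here. Around Wnt8a the median of 47 genes was 1.83 with the gene at 2.17, around Wnt4 that of 53 genes was 1.15 with the gene at 1.46, and around Wnt2 that of 32 genes was -1.02 with the gene at -1.59. Wnt3, Wnt3a, Wnt4, Wnt5a, Wnt7a, Wnt7b and Wnt8a, 7 of the 10, lay within the quartiles of their surroundings, and Wnt2 lay below them. Wnt11 and Wnt5b stood above the upper quartile of theirs, with neighbours at 0.54 (48 genes) and 0.26 (18 genes) against 1.49 and 0.94. In LBRKO, Wnt11 (1.72, neighbours at 1.25), Wnt5b (1.55, neighbours at 1.20) and Wnt5a (-0.34, neighbours at -0.73) were above the upper quartile of their neighbours. Wnt7a (1.18, neighbours at 1.54), Wnt2 (-0.36, neighbours at -0.08) and Wnt8a (0.41, neighbours at 0.71) were below the lower quartile, and the other 4 lay between.

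**Figure D5:**
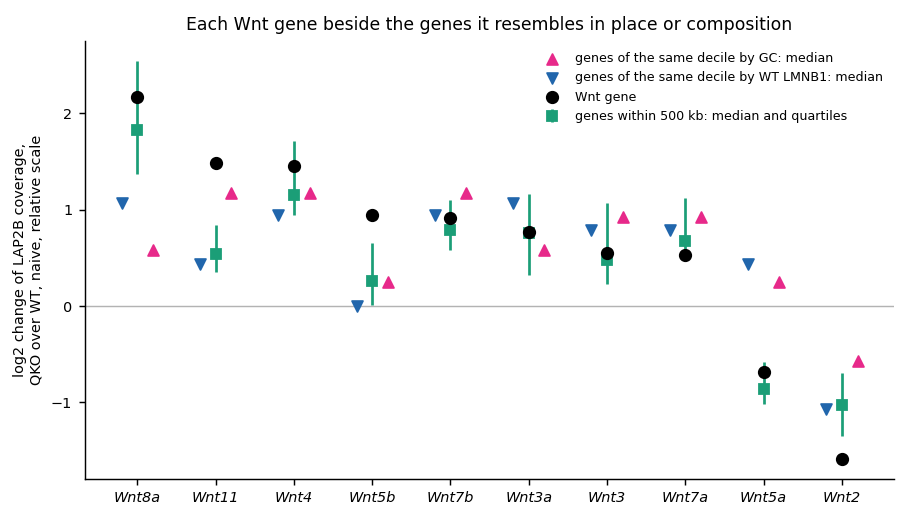
log2 change of LAP2B coverage in naive QKO against WT on the relative scale for each Wnt gene (black), with the median and quartiles of tested genes within 500 kb (green), and the medians of genes in the same decile by GC content (pink) and by WT naive LMNB1 per 1 kb (blue). Wnt8a, Wnt11, Wnt4 and Wnt5b lie above all 3 medians and Wnt2 below them, while Wnt3 (-0.35), Wnt7a (-0.37) and Wnt7b (-0.11) turn negative when centred on GC content.

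The change in naive QKO was graded by GC content over all genes. Its median was -1.47 in the decile of genes with least GC and 1.18 in the decile with most. Against the median of its own decile, Wnt8a was 1.59 higher, Wnt5b 0.69, Wnt11 0.31, Wnt4 0.28 and Wnt3a 0.18, and Wnt7b (-0.27), Wnt3 (-0.37), Wnt7a (-0.39), Wnt5a (-0.93) and Wnt2 (-1.02) were lower. The centring on GC content used elsewhere in the text is another calculation, made in each library by its decile median before the fit. Its values therefore differ from these (Wnt7b -0.105, Wnt5b 0.57). Under that centring 8 members were called, 4 higher (Wnt4, Wnt5b, Wnt8a, Wnt11) and 4 lower (Wnt2, Wnt3, Wnt5a, Wnt7a). The share of all genes called under it is not given. Without the centring 75.6% of all genes were called, so the 8 are not read as a result about the members. The part of GC content in the changes was not tested further. Genes of the same decile by WT LMNB1 had a median of 1.07 for Wnt8a, -1.07 for Wnt2 and 0.44 for Wnt5a, the last of which changed the other way.

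Chromosomes differed too. In naive QKO the median relative change was 0.79 on chromosome 11, which holds Wnt3 (0.55) and Wnt3a (0.77), and -0.65 on chromosome 6, which holds Wnt2, Wnt5b and Wnt7a. In LBRKO chromosome 6 was at 0.27 in naive cells and 0.33 in EpiLC. Divided by the median gene of their own chromosome, Wnt5b and Wnt7a in EpiLC LBRKO were at 0.33 (called) and 0.15 (not called), and Wnt2 was called lower there (-0.37). Copy number and LAP2B binding cannot be told apart from these values.

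The other genes of the pathway were counted by role, in naive QKO against WT on the relative scale, where 33.2% of all tested genes were called higher and 42.3% lower, and 10.2% and 65.3% on the spike-in scale. Among the 9 other Wnt ligand genes 7 were called higher and 2 lower, with a median change of 1.47, against 3 higher and 3 lower on the spike-in scale. Wnt1 (2.24 ± 0.24, limma adjusted p = 4.2e-12), from a mean relative value of 0.768 ± 0.272 (SD, n = 3) to 3.90 ± 0.85, and Wnt6 (2.13 ± 0.17) rose most. Wnt2b (-0.32) and Wnt16 (-0.96) were the lower ones. With spike-in scaling Wnt1 (1.06), Wnt6 (0.93) and Wnt10b (0.69) were called higher and Wnt2b (-1.52), Wnt9b (-0.64) and Wnt16 (-2.10) lower, so that Wnt9b, at 0.57 on the relative scale, changed sign, as did Wnt9a, called at 1.19 on the relative scale and at -0.03 and not called here.

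Of 16 receptors and co-receptors 8 were called higher and 4 lower (median 0.58), and 5 and 8 on the spike-in scale, and the share called in either direction was near the 75.6% of all genes. Ptk7 (2.33 ± 0.11), a co-receptor of polarity signalling, and the Frizzled gene Fzd9 (2.29 ± 0.25) led them. R-spondins, which raise the number of receptors, and their partners had 4 of 9 higher and 5 lower (median -0.34), and 0 and 5 on the spike-in scale. Among them Rspo3 was at -1.95 ± 0.11 and Rnf43, the ligase that removes Frizzled, at 1.62 ± 0.11. Secreted inhibitors had 3 of 13 higher and 5 lower (median -0.29), and 1 and 10 on the spike-in scale, with Dkk2 at -2.32 ± 0.12 and Sost at 1.96 ± 0.26. Of 4 genes found for secretion and its control 2 were higher and 2 lower (median 0.11), and 1 and 2 on the spike-in scale. They included Notum (3.35 ± 0.19), whose enzyme inactivates Wnt, and Trabd2b (-1.78 ± 0.09), a Wnt-cleaving protease.

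Inside the cell, 11 of 14 cytoplasmic transducers were higher and 2 lower (median 1.36), and 5 and 4 on the spike-in scale, with Apc2 at 2.98 ± 0.15 and Dvl1 at 2.62. TCF/LEF factors and cofactors had 9 of 12 higher and 2 lower (median 1.07), and 5 and 5 on the spike-in scale, with Pygo2 at 2.94 ± 0.21 and Bcl9l at 2.75 ± 0.14. Wnt target genes had 7 of 10 higher and 1 lower (median 1.23), and 3 and 4 on the spike-in scale, with Nodal at 2.87 ± 0.21 and Ccnd1 at 2.02.

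Over the 24 LAP2B libraries the relative log2 profile most like that of a member, among protein-coding genes of other chromosomes, was that of Tbc1d4 for Wnt2 (Pearson r = 0.98), Aopep for Wnt5b (0.97), Cep85 for Wnt8a (0.94), Stk25 for Wnt11 (0.95) and Rhobtb1 for Wnt5a (0.90). These are the highest of correlations with all such genes and share the libraries' group structure. Within the family, where genes of the same chromosome were not left out, the highest correlation was that of Wnt5b and Wnt7a (r = 0.91). Both lie on chromosome 6, as does Wnt2, and the part of a shift of that chromosome in the correlation was not tested. For Wnt2 and Wnt5a the most like member was the other of the pair, at r = 0.38.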

How the data were processed

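CUT&RUN libraries of 200000 cells per replicate were analysed from gene tables of LAP2B, LMNB1 and IGG. Per the submitters' processing notes and methods, the authors aligned reads to GRCm39 with Bowtie2 2.3.5.1 and SAMtools 1.10 and removed duplicates. Coverage was made as RPKM with deepTools and scaled by a yeast spike-in factor, at a step that the sources leave unclear. The deposited signal of a gene was read as the sum of scaled RPKM over the 1 kb bins it touches, which the sources do not state. Genes within 1 shared bin had equal values in 343 of 343 sets. That equality shows values made from bins, but cannot tell a sum from a mean or a maximum. The percentiles of coverage per 1 kb bin rest on the sum reading. All values were whole multiples of 1 step per library (100% within 0.05 of a step), from which reads were recovered for edgeR 4.0.16. Reads in bins shared by overlapping genes count for each, and intervals from counting error are not given because replicates differed by more (chi-square per degree of freedom of at least 3.37 in 36 pairs).

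On the relative scale libraries were divided by their median gene. Genes in the lowest 0.1 by mean value were left out, a pseudocount of 0.1 of the median was added, and log2 values were tested with limma 3.58.1 (trend) in R 4.3.3, with all 24 LAP2B libraries in 1 model and LMNB1 and IGG in models of their own. The fold changes understate changes of low genes. Coordinates and start sites are from GENCODE M39, found for 99.9% of genes; the study names release M30. Coverage of DNA does not check the knockout labels, and cell type markers could not be checked. The 10 members and the pathway lists were chosen with earlier results of these data known. Library values are given for each member among the 3 highest and 3 lowest naive QKO changes or called in the stage difference of QKO, and ranges for the others. Up to 2 called genes per list with the highest absolute change were named. The GC centring was added after its trend was seen. The H3K9me3 samples (2) were not analysed here.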

Additional observations from a re-analysis of the deposited data

Results flagged for a closer look

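The effect of a genotype on LAP2B coverage differed between stages for several Wnt genes, by the interaction term in limma (EpiLC change minus naive change, log2, relative scale, 3 libraries per group). For LBRKO the difference was -0.65 ± 0.17 for Wnt3a, -0.66 ± 0.22 for Wnt4, -0.83 ± 0.13 for Wnt5b, -0.65 ± 0.15 for Wnt7a, -0.71 ± 0.17 for Wnt7b and -1.44 ± 0.19 for Wnt11. For QKO it was 0.87 ± 0.17 for Wnt2, 0.55 ± 0.23 for Wnt5a, -0.965 ± 0.216 for Wnt4, -0.845 ± 0.129 for Wnt5b, -0.58 ± 0.15 for Wnt7a, -0.63 ± 0.17 for Wnt7b, -1.295 ± 0.283 for Wnt8a and -1.10 ± 0.19 for Wnt11. When centred on GC content the QKO calls of Wnt4 (-0.25), Wnt7a (-0.001), Wnt7b (0.086) and Wnt11 (-0.39) and the LBRKO calls of Wnt4 (-0.35) and Wnt7b (-0.40) were lost. Divided by the median gene of the same chromosome, those of Wnt5a (0.22) and Wnt7b (-0.32) in QKO and of Wnt3a (-0.41) and Wnt4 (-0.55) in LBRKO were lost. The QKO call of Wnt5a held in 3 of 12 fits without 1 library, and the LBRKO call of Wnt4 in 6 of 12. The stages also differ in medium, and the part of that in the difference cannot be told apart.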

How the results depend on the processing

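Of 230 gene values, 107 were called, and 39 of these held in every alternative tried. The 2 scales count as separate values here, so no relative call was refitted on the spike-in scale. Wnt5b, Wnt4 and Wnt11 in naive QKO thus held on the relative scale, but were not called on the spike-in scale (-0.30, 0.24 and 0.26). The 1603 refits of called values gave the same call in 1360, lost it in 231 and changed sign in 12. Turns of sign between the 2 scales are not among the 12. Among values called before or after the change of setting, signs turned when centred on GC content for naive TKO (Wnt3 -0.28, Wnt4 -0.089, Wnt7b -0.19), naive QKO (Wnt3 -0.35, Wnt7a -0.365, Wnt7b -0.105), the QKO stage difference (Wnt3 0.40, Wnt7b 0.086) and naive QKO against TKO (Wnt3 -0.065, Wnt7a -0.001). Divided by the chromosome's median gene they turned for Wnt7a in naive TKO (0.295), Wnt3 (-0.36) and Wnt3a (-0.14) in naive QKO, Wnt2 in EpiLC LBRKO (-0.37), and Wnt3 (-0.16) and Wnt3a (-0.25) in naive QKO against TKO. Divided by the mean, Wnt7a in naive TKO was 0.32. The causes were not tested.

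Relative counts moved under GC centring to 5 (naive TKO), 2 (EpiLC TKO), 3 (WT LAP2B stage), 1 and 5 (TKO and QKO stage differences) and 5 (naive QKO against TKO), under chromosome scaling to 5 (naive TKO), 2 (EpiLC TKO) and 2 (LMNB1), and with only the compared groups fitted to 4 (naive TKO) and 1 (EpiLC QKO against TKO). LMNB1 gave 0 without the low-value filter. Spike-in counts moved without that filter to 2 (naive TKO), 0 (EpiLC LBRKO, EpiLC TKO, LMNB1) and 1 (WT LAP2B stage), with the factor applied to reads to 7 (naive TKO, EpiLC LBRKO), 0 (EpiLC TKO), 1 (EpiLC QKO), 5 (WT LAP2B stage) and 2 (LMNB1), and with only the compared groups to 2 (naive TKO, EpiLC LBRKO), 0 (EpiLC TKO) and 1 (WT LAP2B stage).

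Replicate numbers did not pair the libraries (median same-number r = -0.00535 for LAP2B, 3 of 84 over 0.1), and with the replicate block LMNB1 calls were 2 on the relative and 0 on the spike-in scale and EpiLC TKO had 0 on the spike-in scale. By edgeR on recovered reads relative counts were 9 in naive LBRKO, 4 in EpiLC TKO and 7 in the QKO stage difference. Spike-in counts by edgeR were 3 in naive TKO and 2 in the WT LAP2B stage comparison, and its other counts equalled those of limma.

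Leaving out 1 library, relative counts ran from 7 to 9 (naive LBRKO), 5 to 7 (naive TKO), 10 to 10 (naive QKO), 3 to 5, 2 to 6 and 3 to 7 (EpiLC LBRKO, TKO, QKO), 4 to 8 (WT LAP2B stage), 5 to 6, 0 to 1 and 7 to 8 (stage differences of LBRKO, TKO, QKO), 9 to 10 and 0 to 0 (QKO against TKO, naive and EpiLC) and 1 to 6 (LMNB1). Spike-in counts ran from 6 to 7, 2 to 6 and 5 to 5 (naive LBRKO, TKO, QKO), 0 to 1, 0 to 1 and 4 to 7 (EpiLC), 0 to 3 (WT LAP2B stage), 0 to 7 (LMNB1) and 0 to 1 (IGG). Wnt8a, with as few as 38 reads in a library, had the highest SE of the members in each LAP2B comparison (0.20 in the relative genotype comparisons).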
